A study of Sus scrofa with 8 samples.

Results

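The genes that carry MHC class I presentation were followed through the pig retina after intravitreal injection of an adeno-associated virus (AAV). The group holds 7 genes of the 35683 in the count tables: NLRC5, B2M, TAP1, TAP2, TAPBP, PSMB8 and PSMB9. They are listed by name for their known roles, with no threshold on their values. Their unique molecular identifiers (UMIs, 1 for each transcript captured) were summed per retina within classes of nuclei gated by marker genes, and AAV was set against vehicle at each week. The question was whether each class of neurons and glia gains this machinery.

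Single-nucleus RNA sequencing covered 8 retinas of 6 female Yucatan minipigs, aged 3 to 5 months. All animals, controls included, received Vitrase in both eyes 2 weeks before the injection and methylprednisolone weekly from 2 days before it. On day 0 both eyes received either AAV2.7m8/CAG-GFP at 5e11 vector genomes per eye, an AAV2 variant for intravitreal delivery that carries green fluorescent protein under the ubiquitous CAG promoter, or vehicle. At week 2 both eyes of 1 AAV animal and of 1 vehicle animal were sequenced, so that each group was 1 animal and no test between animals was possible. At week 4 the left eyes of 2 AAV animals and of 2 vehicle animals were sequenced, each from a different pig. Each of the 4 groups carries a batch label of its own, so that batch and group cannot be told apart in any comparison below.

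MHC class I molecules show peptides from the inside of a cell to CD8 T cells. The proteasome cuts cytosolic proteins into peptides, and its inducible subunits, among them PSMB8 and PSMB9, change the ends of the peptides it releases. The TAP1 and TAP2 proteins form the pump that carries the peptides into the endoplasmic reticulum, where tapasin, the product of TAPBP, holds empty class I molecules at the pump. B2M encodes the light chain that every class I molecule needs to reach the surface. NLRC5 is the transcriptional coactivator of this gene set and is itself induced by interferon. Neurons are known for keeping class I presentation low, and the retina is counted among the immune-privileged tissues.

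After a filter on mitochondrial share, 350537 of 388491 nuclei were kept, and 285152 of them fell into 9 classes: 125944 rods, 47080 cones, 54923 bipolar cells, 22723 amacrine cells, 2202 horizontal cells, 1319 retinal ganglion cells (RGC), 26017 Müller glia, 1987 astrocytes and 2957 myeloid cells. Of 101 markers with counts, 95 were highest in the class they stand for. The gate scored nuclei on 96 markers of the same list, so this count is no independent check of the classes. A further 3397 nuclei were gated as lymphocytes, of which 1751 and 1473 came from the AAV retinas of week 4 and between 5 and 58 from each other retina. The total per retina ran from 121544835 to 173614051 UMIs, and any pair of retinas shared between 1.15% and 1.56% of the barcodes of the smaller. The Müller class stood apart at week 4, with 1130 and 440 nuclei at medians of 5506 and 5568 UMIs in the AAV retinas against 4015 and 3962 nuclei at 2266 and 2073 UMIs in the vehicle retinas. The astrocyte class differed in depth in the same way, with medians of 10149 and 10544.5 UMIs in the AAV retinas against 4706 and 4773 UMIs. The myeloid class had only 72 and 71 nuclei in the vehicle retinas of week 4. Levels are given as CPM, the UMIs of a gene per 1000000 UMIs of that class in that retina. They are shares of the UMIs of a class, so that they show neither the number of cells nor the RNA content of a cell.

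In the pig genome the members lie on 3 chromosomes. In the RefSeq annotation of Sscrofa11.1, the build of the count tables, NLRC5 (ENSSSCG00000039751) is at chr6:18933179-19036288. The genes TAP2 (chr7:25045085-25056915), PSMB8 (chr7:25058456-25061666), TAP1 (chr7:25062772-25071989) and PSMB9 (chr7:25072133-25077508) follow each other on chromosome 7, and TAPBP (chr7:29663491-29673453) lies further along it. B2M is annotated as a pair of copies on chromosome 1 (chr1:126837721-126844043 and chr1:126865767-126878501), and which of them the counted gene ENSSSCG00000051899 stands for is not given in the sources used here. The bases upstream of the annotated starts were searched on both strands for GAAANNGAA, the core of an interferon response element, for TTCNNNGAA, the gamma-activated site, and for CCAAT, the Y box. In windows of 250 bases upstream of 19559 genes these letters were present in 6.70%, 6.11% and 31.9%. Shown are the stretches that bear on members that rose together, a window with a match and an interval that a pair of members shares. The first is the window of 1 B2M copy (chr1:126844044-126844293, minus strand, 5′ to 3′), in which capitals mark a run of overlapping GAAANNGAA matches that ends 10 bases from the start. The second is the whole interval of 143 bases between the starts of TAP1, which runs to the left, and PSMB9, which runs to the right (chr7:25071990-25072132, plus strand), which holds none of the 3 motifs.
B2M upstream: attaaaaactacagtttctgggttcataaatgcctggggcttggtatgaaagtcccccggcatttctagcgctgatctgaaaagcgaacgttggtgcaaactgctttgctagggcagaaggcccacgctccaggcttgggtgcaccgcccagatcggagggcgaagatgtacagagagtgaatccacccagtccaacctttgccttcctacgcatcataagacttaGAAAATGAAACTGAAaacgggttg
TAP1 to PSMB9 interval: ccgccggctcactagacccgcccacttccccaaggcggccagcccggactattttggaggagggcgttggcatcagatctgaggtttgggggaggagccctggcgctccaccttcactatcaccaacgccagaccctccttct
The window of PSMB9 reaches past this interval into the annotated span of TAP1, and there, 149 bases from the PSMB9 start, stands GAAAGGGAAAACGAA (chr7:25071970-25071984), with overlapping matches like those of B2M. The windows of NLRC5, TAP2, TAPBP, PSMB8 and the other B2M copy held no match to any of the 3 motifs, and the window of TAP1 held 1 match, a CCAAT at 167 bases from the start. A match is a run of letters and no measured site, and a window without a match says nothing of the factor.

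Members were higher after AAV in each of the 9 classes, with the fewest calls that held in myeloid cells. At week 4, edgeR's quasi-likelihood test, adjusted by the Benjamini-Hochberg method over all genes of a class, called 57 of 62 tested pairs of member and class higher in AAV retinas and 0 lower. The missing pair of the 63 was PSMB9 in astrocytes, which did not pass the filter on low counts. Only 22 of the 63 pairs met that filter in the vehicle retinas alone, and 20 of these were called. None of the 22 was in horizontal cells, RGC or myeloid cells. The calls outside these 22 pairs are no independent support. All 7 members rose in rods, bipolar cells, amacrine cells, horizontal cells, RGC and Müller glia. The share of all tested genes called higher was 5.92% in rods, 2.15% in bipolar cells, 1.74% in amacrine cells, 2.92% in horizontal cells, 2.55% in RGC and 11% in Müller glia. In cones, 5 of 7 members rose where 1.37% of all genes did, in astrocytes 5 of 6 where 8.07% did, and in myeloid cells 5 of 7 where 4.53% did. The myeloid count fell to 3 with DESeq2 and to between 3 and 4 when 1 retina was left out. The median log2 fold change of the members ran from 2.98 in myeloid cells and 3.07 in cones to 5.55 in Müller glia and 6.21 in horizontal cells, while the median over all genes of a class lay between -0.01 and 0.15. Where a member without vehicle UMIs entered at its bound in place of the fitted value, the medians became 2.66 in myeloid cells and 5.67 in horizontal cells. NLRC5, B2M, TAP1, TAP2 and PSMB8 rose in 9 of 9 classes, TAPBP in 6 of 9 and PSMB9 in 6 of 8.

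The myeloid class differed in some of its own markers between the groups of week 4, but not in all of them. CSF1R stood at 400 and 379 CPM in the AAV retinas against 376 and 362 CPM in the vehicle retinas. The 13 myeloid markers summed to 4464 and 3711 CPM against 4196 and 4394 CPM. The macrophage receptor CD163 stood at 2081 and 1311 CPM in the AAV retinas against 0 and 7.71 CPM in the vehicle retinas, and MRC1 at 338 and 296 CPM against 0 and 0 CPM, while the microglial receptor P2RY12 stood at 461 and 673 CPM against 1872 and 1858 CPM. The class held 1498 and 936 nuclei against 72 and 71, so a change in its makeup and a change per nucleus cannot be told apart there. The 19 lymphocyte markers summed to 1949 and 2227 CPM in the AAV myeloid class against 117 and 170 CPM, of which BANK1 alone gave 1696 and 1907 CPM. Without BANK1, which stood higher in the myeloid than in the lymphocyte class, the other 18 markers summed to 253 and 320 CPM against 75.2 and 108 CPM. Markers of Müller glia and of vascular cells were lower in several classes of the AAV retinas. The 4 Müller markers stood at 342 and 259 CPM against 1126 and 947 CPM in astrocytes, at 89.4 and 101 CPM against 281 and 322 CPM in rods, at 63.6 and 53.1 CPM against 151 and 171 CPM in bipolar cells and at 2000 and 1811 CPM against 3367 and 3458 CPM in the Müller class itself. The 13 vascular markers stood at 264 and 262 CPM against 890 and 699 CPM in astrocytes and at 43.4 and 27.5 CPM against 104 and 178 CPM in rods. Some of these 13 are not particular to vascular cells. KDR stood at 1263 CPM in the Müller class against 119 CPM in the vascular class, and PDGFRB at 87.3 CPM against 77.0 CPM. A fall of vascular RNA can therefore not be told apart from a fall of Müller RNA in these sums. The part of these shifts in the members' values was not tested.

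Both AAV retinas of week 4 lay above both vehicle retinas in 62 of 63 pairs, where 24.7% of all pairs of gene and class did, and the exception was TAPBP in myeloid cells. Many vehicle sums were small. In 14 pairs both vehicle retinas together held 1 to 3 UMIs of the member, and in 4 they held none. Only 21 pairs had at least 10 UMIs in each vehicle retina, 5 each in rods and Müller glia, 4 each in bipolar and amacrine cells and 3 in cones, and 20 of them were higher, with log2 fold changes from 0.76 to 6.42 and a median of 4.4 over the 21. The filter on low counts, which asks for 10 counts at the median library and 15 in all, was met by the vehicle retinas alone in 22 of the 63 pairs, of which 20 were called higher. The other 41, among them every pair in horizontal cells, RGC and myeloid cells and 6 of 7 in astrocytes, needed the AAV retinas to pass, so that their calls are no independent support. The share of all pairs of gene and class called higher under these limits on the vehicle retinas was not determined, so that the counts of 20 stand without a background.

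**Figure D1:**
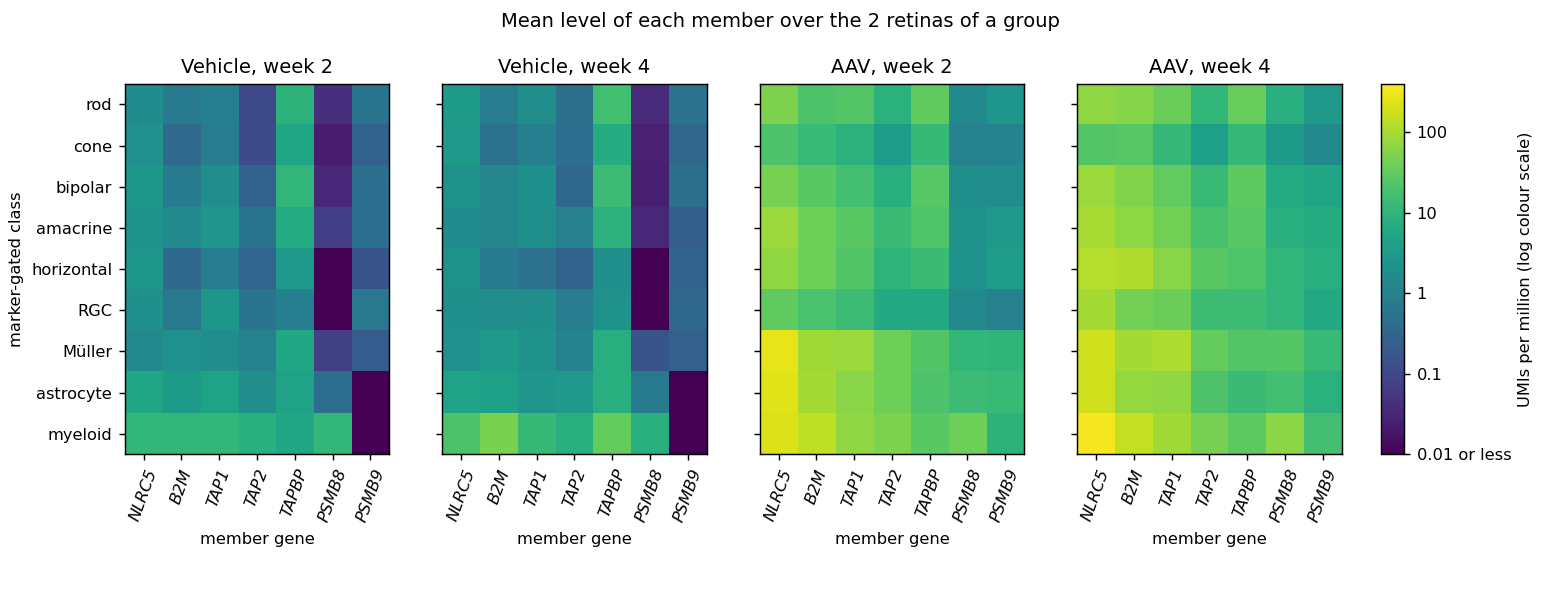
Mean CPM of the 7 members (columns of each panel) in the 9 classes (rows) for the 4 groups (panels), on a log colour scale. Dark blue is low and yellow is high. The vehicle panels of both weeks are dark in the rows of neurons and macroglia except in the TAPBP column, and both AAV panels are lighter in every row. In the AAV panel of week 4 cones have the lowest mean of the 9 rows for all 7 members.

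NLRC5, the coactivator, was low but present in every class of the vehicle retinas, at 1.17 to 5.48 CPM in neurons and macroglia over both weeks, and 16.4 to 380 CPM after AAV. In rods it stood at 38.1 and 59.7 CPM in the left and right AAV eye of week 2 against 1.73 and 1.75 CPM in the vehicle eyes, and at 71.9 and 65.2 CPM in AAV animals 1 and 2 of week 4 against 2.00 and 4.55 CPM in the vehicle animals. The 4 AAV retinas lay above the 4 vehicle retinas without overlap. The week 4 log2 fold change in rods was 4.54 ± 0.36 (SE, adjusted p = 0.00467, edgeR).

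Müller glia, the radial glia that span the retina, had NLRC5 at 168 and 380 CPM in the AAV eyes of week 2 against 1.17 and 1.86 CPM in the vehicle eyes. At week 4 they had 178 and 189 CPM in AAV retinas against 2.15 and 2.11 CPM, a log2 fold change of 6.42 ± 0.17 (adjusted p = 1.24e-06, edgeR), with the highest NLRC5 fold of the 9 classes. RGC, the output neurons, had 16.4 and 43.4 CPM against 2.31 and 1.78 CPM at week 2. By week 4 RGC stood at 101 and 90.0 CPM against 1.84 and 2.23 CPM, a log2 fold change of 5.57 ± 0.26 (adjusted p = 1.63e-09, edgeR). The RGC pair passed the filter on low counts only through the AAV retinas, so that its call is no independent support.

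Cones had the lowest level after AAV at week 4. Their NLRC5 was 18 and 22.7 CPM against 2.46 and 1.80 CPM at week 2, and 24.6 and 22.4 CPM against 3.09 and 2.75 CPM at week 4, a log2 fold change of 3.07 ± 0.17 (adjusted p = 0.000924, edgeR). The vehicle level of cones was within the range of the other neurons. Interneurons stood between the extremes at week 4. Amacrine cells had 101 and 99.5 CPM against 2.15 and 1.26 CPM, horizontal cells 137 and 102 CPM against 2.85 and 1.57 CPM, and bipolar cells 91.8 and 70.2 CPM against 1.35 and 3.14 CPM. Their log2 fold changes were 5.89 ± 0.19, 5.67 ± 0.35 and 5.21 ± 0.31.

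In the AAV retinas of week 4 the order of NLRC5 levels was led by myeloid cells at 319 to 367 CPM. Astrocytes at 161 to 205 CPM and Müller glia at 178 to 189 CPM came next and overlapped. Horizontal cells lay below them at 102 to 137 CPM. RGC overlapped both amacrine and bipolar cells, rods at 65.2 to 71.9 CPM overlapped bipolar cells, and cones at 22.4 to 24.6 CPM lay below all of them. The classes come from the same 2 retinas, and overlap of their ranges leaves this pairing out. Within each retina RGC and amacrine cells stood above bipolar cells, and bipolar cells above rods. Astrocytes and Müller glia changed order between the retinas. The levels of neighbours in this order were not tested against each other.

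**Figure D2:**
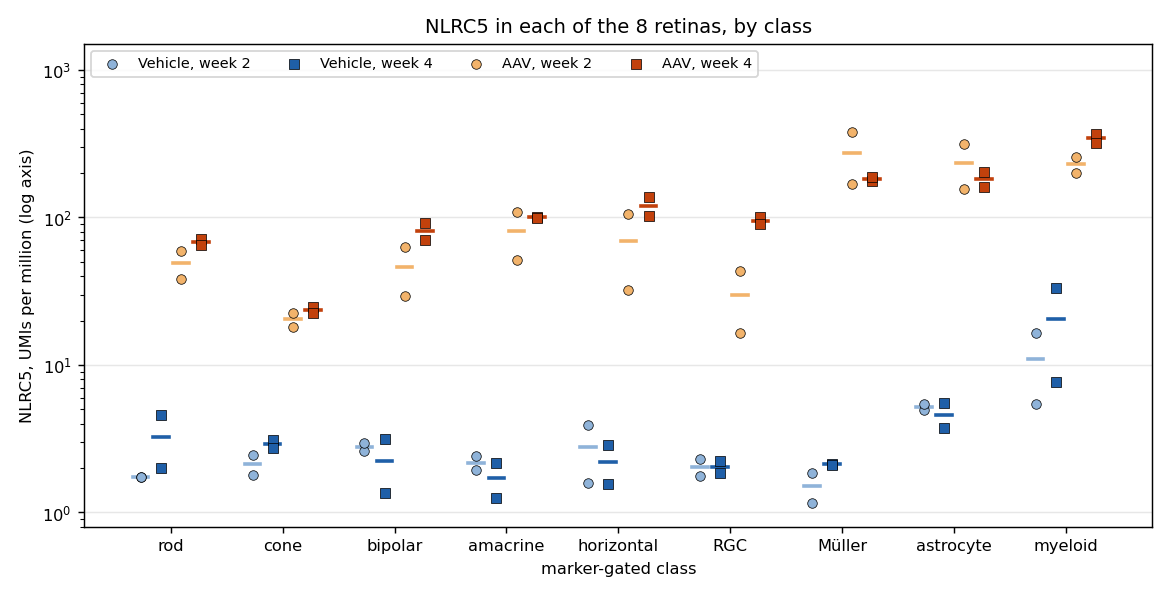
NLRC5 in CPM on a log axis for each of the 8 retinas (points) in the 9 classes, with a line at the mean of each group. The AAV points of both weeks lie above the vehicle points in every class, and the right AAV eye of week 2 lies above the left eye in all 9.

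B2M, the light chain, was held by vehicle neurons at 0.442 to 2.86 CPM at week 4 and rose in all 9 classes. Rods held 54.2 and 64.5 CPM in the AAV retinas of week 4 against 0.876 and 0.866 CPM in the vehicle retinas, and the log2 fold change was 6.20 ± 0.21 (adjusted p = 0.000439, edgeR). At week 2 the rods stood at 19.6 and 22.5 CPM against 0.933 and 0.603 CPM, a ratio of 27.2 with a 95% counting interval from 20.7 to 36.3. In cones, with 23.8 and 28 CPM against 0.442 and 0.593 CPM at week 4, the log2 fold change was 5.70 ± 0.25.

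Müller glia held B2M at 91.5 and 103 CPM against 2.05 and 3.91 CPM at week 4, with a log2 fold change of 5.03 ± 0.26 (adjusted p = 1.12e-05, edgeR). Myeloid cells, which present antigen as part of their normal work, held 50.2 and 46.3 CPM in the vehicle retinas of week 4, on 6 UMIs each, and 137 and 158 CPM in the AAV retinas, a log2 fold change of 1.76 ± 0.33 (adjusted p = 0.0125, edgeR). This was the lowest B2M change of the 9 classes at week 4, and the groups did not overlap, but the class differed in MRC1, CD163 and P2RY12 between them as given above. The myeloid pair also passed the filter on low counts only through the AAV retinas. At week 2 the vehicle myeloid cells held 5.48 and 16.6 CPM, on 1 and 3 UMIs, and the ratio was 12.7 (4.79 to 47.8), with 22.9 between the left eyes and 9.52 between the right eyes. The others lay between 4.26 in astrocytes and 6.92 in horizontal cells, where the vehicle retinas held 3 UMIs together.

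TAP1 and TAP2, the subunits of the peptide pump, both rose in every class. TAP1 in Müller glia was 103 and 111 CPM against 2.15 and 2.43 CPM at week 4, with a log2 fold change of 5.55 ± 0.18 (adjusted p = 2.02e-06, edgeR). TAP2 in the same glia was 37.5 and 26.3 CPM against 1.17 and 1.06 CPM, a log2 fold change of 4.85 ± 0.28 (adjusted p = 2.3e-05, edgeR). Neither gene had overlapping groups in these glia.

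Among neurons, TAP1 in rods stood at 38.6 and 34.7 CPM against 2.10 and 1.68 CPM, and TAP2 in rods at 11.4 and 10.7 CPM against 0.490 and 0.487 CPM. The log2 fold changes were 4.37 ± 0.18 and 4.6 ± 0.23. Over the classes, TAP1 changes ran from 2.98 in myeloid cells to 6.56 in horizontal cells, and TAP2 changes from 2.66 in myeloid cells to 6.21 in horizontal cells. The horizontal values rested on 2 vehicle UMIs of TAP1 and 1 of TAP2. Counting intervals of their ratios ran from 30.4 to 921 and from 16.8 to 3827. The TAP2 call in myeloid cells rested on 2 vehicle UMIs, was close to the threshold (adjusted p = 0.0488, edgeR) and was lost without vehicle animal 1 (0.0713) or vehicle animal 2 (0.1004).

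TAPBP, which encodes tapasin, was the member that moved least. Vehicle neurons and macroglia already held it at 1.57 to 18 CPM at week 4. In rods it was 31.3 and 35.5 CPM in AAV retinas against 14.7 and 18 CPM, a log2 fold change of 1.15 ± 0.17 (adjusted p = 0.0165, edgeR). That rod call was lost without AAV animal 2 (adjusted p = 0.0640), vehicle animal 1 (0.0673) or vehicle animal 2 (0.0752), although the groups did not overlap.

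Horizontal cells and RGC, with low vehicle levels of TAPBP, had larger changes of 3.35 ± 0.47 and 2.80 ± 0.39. Bipolar cells changed by 1.08 ± 0.15, a call that was lost without vehicle animal 1 (adjusted p = 0.0879, edgeR). The call was not reached in cones, with 12.2 and 10.9 CPM against 6.82 and 7.44 CPM (log2 fold change 0.76 ± 0.16, adjusted p = 0.0789, edgeR), or in astrocytes, with 12.3 and 15.4 CPM against 8.37 and 7.54 CPM (0.85 ± 0.38, adjusted p = 0.169). Myeloid cells had 26.8 and 30.2 CPM against 33.4 and 30.8 CPM (-0.03 ± 0.50, adjusted p = 0.983), the only pair without a higher AAV level, on 8 vehicle UMIs. At week 2 the ratios of TAPBP ran from 2.35 in bipolar cells to 5.95 in RGC.

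PSMB8 and PSMB9, the inducible catalytic subunits of the proteasome, stood at 0 to 1.15 CPM in neurons and macroglia of the vehicle retinas of both weeks. PSMB8 in Müller glia was 24.8 and 23.9 CPM against 0.0976 and 0.211 CPM at week 4, a log2 fold change of 7.17 ± 0.36 (adjusted p = 1.03e-05, edgeR). Rods held 8.94 and 6.17 CPM against 0.0701 and 0 CPM, with 2 vehicle UMIs, and the ratio was 174 with a counting interval from 48.0 to 1438. No UMI of PSMB8 was found in the vehicle horizontal cells or RGC of week 4. Against 3 counts over both vehicle retinas, horizontal cells, at 10.7 and 11.2 CPM, showed a gain of at least 13.4-fold, and RGC, at 11.9 and 9.81 CPM, of at least 21.3-fold. The call in horizontal cells was lost without AAV animal 2 (adjusted p = 0.0730, edgeR).

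PSMB9 in Müller glia was 12.4 and 13.4 CPM against 0.195 and 0.317 CPM, a log2 fold change of 5.56 ± 0.40 (adjusted p = 6.39e-05, edgeR). The rod level was 3.55 and 2.49 CPM against 0.525 and 0.541 CPM, a change of 2.6 ± 0.34 (adjusted p = 0.0131, edgeR), and the rod call was lost without vehicle animal 1 (0.0620) or vehicle animal 2 (0.0867). Cones had 1.88 and 1.24 CPM against 0.393 and 0.270 CPM without reaching the call (2.26 ± 0.44, adjusted p = 0.0604, edgeR). The call in horizontal cells, on 1 vehicle UMI, was lost without AAV animal 2 (0.104), vehicle animal 1 (0.0915) or vehicle animal 2 (0.181), and that in RGC, on 2 vehicle UMIs, without AAV animal 1 (0.0829). Vehicle astrocytes and myeloid cells had no UMI of PSMB9 at week 4, and the AAV levels were at least 8.04-fold and at least 1.42-fold higher against the same floor of 3 counts. The myeloid test did not pass (adjusted p = 0.12, edgeR).

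**Figure D3:**
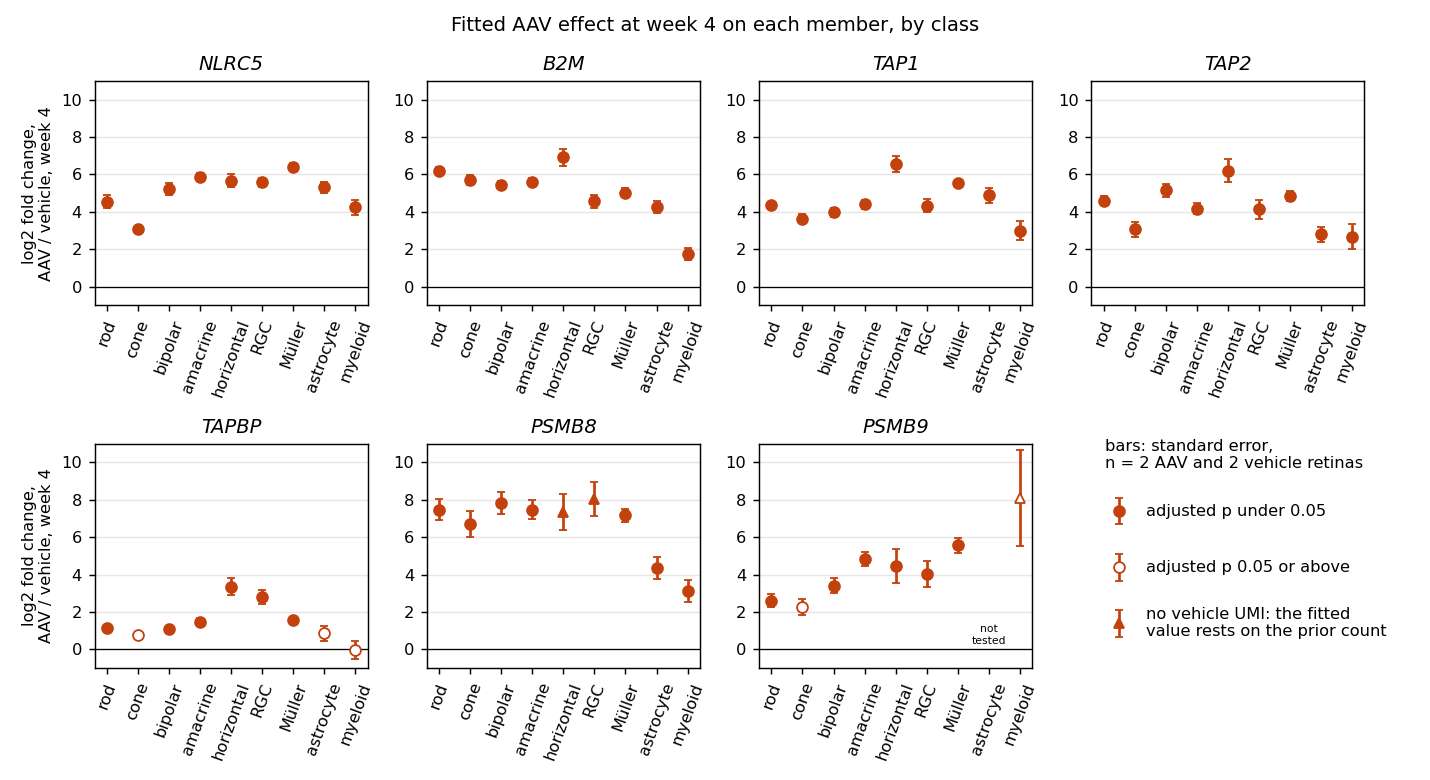
Log2 fold change of each member at week 4 (AAV over vehicle, edgeR, bars are 1 SE) in the 9 classes, with filled points at an adjusted p under 0.05, open points above it and triangles where the vehicle retinas held no UMI. The points lie above 0 everywhere except TAPBP in myeloid cells, PSMB9 in astrocytes has no point because it was not tested, and TAPBP has the lowest value of the members in each of the 9 classes.

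The size of the gain differed between classes for most members. A joint edgeR test over the 9 classes, with the animal as a block, asked whether the AAV effect at week 4 was the same in all of them, and it called 6 of 7 members, where 28.8% of all genes were called. The adjusted p was 1.76e-05 for TAPBP, 5.6e-05 for NLRC5, 0.000291 for TAP1, 0.000434 for B2M, 0.00847 for PSMB9 and 0.0362 for TAP2. PSMB8 was not called (0.271), with 0 to 3 vehicle UMIs in a class, which does not show that its effect was the same in all classes. For PSMB9 the differences from rods were largest in astrocytes (7.07 on the log2 scale) and myeloid cells (8.05). The vehicle retinas held no PSMB9 UMI in these classes, so that these differences have no measured size. With only neuron classes PSMB9 was not called (adjusted p = 0.0535, edgeR).

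Without the myeloid class the same number, 6, was called. The share of all genes called in this and the other alternative fits is not given here, so that their counts stand without a background. With only the 6 neuron classes, 3 were called: TAPBP (0.000128), NLRC5 (0.000584) and TAP1 (0.0201). In the fit of 9 classes the NLRC5 effect in cones differed from that in rods by -1.57 on the log2 scale, and that in amacrine cells was 1.23 higher. Leaving out 1 retina at a time left 3 to 5 of 7, and the TAP2 call was lost in all 4 of these fits, while NLRC5, TAPBP and B2M were called in each. TAP1 was lost without vehicle animal 1 (0.200), and PSMB9 without vehicle animal 1 (0.218) or vehicle animal 2 (0.159).

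The members were already higher at week 2. Both AAV eyes lay above both vehicle eyes in 58 of 58 pairs with at least 20 UMIs over the 4 eyes, and all 58 were more than 2-fold higher, where 4.58% of all pairs of gene and class with that many UMIs were both. Many of these pairs reached that number only through the AAV eyes, and with at least 20 UMIs asked of the vehicle eyes alone 26 pairs remained, of which 26 were both, where 2.23% of all such pairs were. Among the pairs with fewer UMIs over the 4 eyes, PSMB9 in RGC overlapped, with a ratio of 1.48 and a counting interval from 0.405 to 5.92, and PSMB9 in myeloid cells, with 5 and 1 AAV UMIs and no vehicle UMI, had a ratio whose counting interval reached down to 0.705, so that a difference was not detectable at this depth. These values compare 1 animal with 1 animal, and the intervals cover counting error only. In Müller glia the NLRC5 ratio was 205 (151 to 287) at week 2 and 85.0 (62.6 to 118) at week 4.

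The eyes of the AAV animal of week 2 were not alike. The right eye was above the left in 9 of 9 classes for NLRC5, TAP1 and TAP2, in 8 of 9 for B2M, TAPBP and PSMB8, and in 7 of 9 for PSMB9. Among pairs with at least 20 UMIs over both eyes this came to 54 of 58, where 46.7% of all pairs of gene and class had the right eye above. In the vehicle animal of week 2 it was 13 of 26 such pairs, where 50.6% of all pairs did. The median ratio of right to left over the classes was 2.12 for NLRC5 and 1.14 for B2M. The transgene moved the same way, with EGFP at 56.3 CPM over all nuclei in the right eye and 28.9 CPM in the left, and at 26 and 25.6 CPM in the AAV retinas of week 4. The part of the transgene level in the members' levels was not tested.

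No pair of member and class passed the threshold for a difference between weeks. The fit was over all 6 animals with eyes summed per animal. In it edgeR called 0 of 62 pairs for the interaction of treatment and week, where 0.767% of all pairs were called. The lowest adjusted p-values were those of NLRC5 in Müller glia (difference of -1.22 on the log2 scale, week 4 minus week 2, adjusted p = 0.056) and of B2M in rods (1.55, adjusted p = 0.0884). A p above the threshold does not show equal effects, since week 2 has 1 animal per arm. As values, both AAV eyes of week 2 lay below both AAV retinas of week 4 in 8 of 9 classes for TAP1 and PSMB8, 7 for PSMB9, 6 for B2M, 5 for TAP2, 4 for NLRC5 and 2 for TAPBP. This came to 40 of 63 pairs, where 26.7% of all pairs of gene and class with at least 20 UMIs over these 4 retinas did the same. With week as a term, AAV against vehicle over the 6 animals called 57 of 62 pairs higher, where 1.38% of all pairs were called. PSMB9 in RGC was not called there (adjusted p = 0.141, edgeR), and PSMB9 in astrocytes, which could now be tested, was called (0.0165). No vehicle astrocyte sum of either week held a PSMB9 UMI. The astrocyte pair passed the filter only through the AAV animals, and its call is no independent support.

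At least 1 UMI of any member was found in 35.1% and 38.6% of rods, 20.4% and 24.5% of cones, 48.4% and 48.0% of bipolar cells, 65.8% and 73.9% of amacrine cells, 83.7% and 90.1% of horizontal cells and 92.6% and 94.8% of RGC in the AAV retinas of week 4. Among glia, the shares were 82.0% and 89.1% of Müller cells and 89.7% and 91.9% of astrocytes. RGC held medians of 18987 and 20749 UMIs per nucleus in these retinas and rods 1939 and 2192, so that these shares cannot be ranked between classes as they stand. In the vehicle retinas of week 4, the same share ran from 3.09% to 20.8% over the 9 classes. Depth also differed between AAV and vehicle nuclei, as given above for Müller glia and astrocytes. These shares were not brought to equal depth, and the part of depth in their difference was not tested.

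UMIs of at least 3 different members occurred together in 49.3% and 47.4% of RGC, 33.5% and 36.6% of horizontal cells, 30.8% and 37.5% of astrocytes and 26.9% and 28% of Müller glia. Amacrine cells had 12.2% and 16.4%, bipolar cells 4.45% and 4.59%, rods 1.19% and 1.43%, and cones 0.90% and 0.908%. After each nucleus was thinned to 1000 UMIs, which left out 3000 nuclei in the AAV group and 5646 in the vehicle group of week 4, the mean share with any member over the 2 AAV retinas was 35.6% in Müller glia, 32.1% in horizontal cells, 29.5% in astrocytes, 23.0% in RGC, 23.3% in amacrine cells, 19.4% in rods, 18.5% in bipolar cells and 7.57% in cones. At equal depth rods and bipolar cells stood close to each other and cones stayed lowest.

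**Figure D4:**
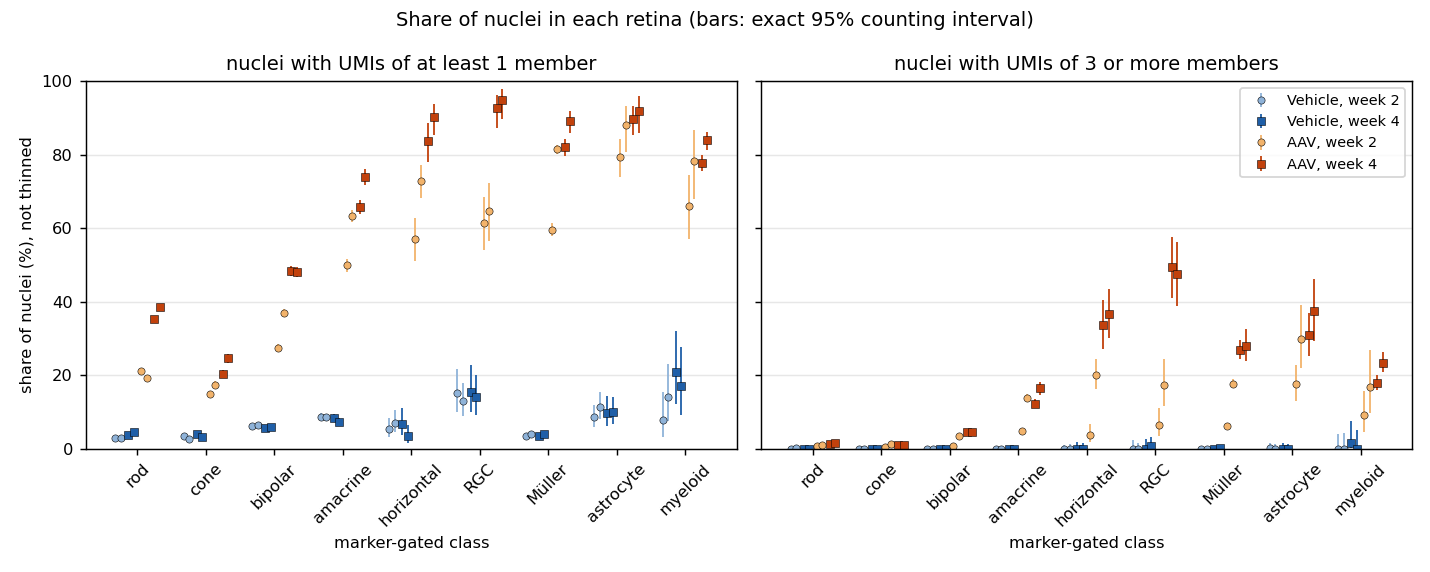
Share of nuclei with at least 1 UMI of any member (first panel) and with at least 3 different members (second panel) in each of the 8 retinas and 9 classes, in percent, with exact 95% intervals for counting error. In every class the AAV retinas lie above the vehicle retinas in the first panel.

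The members were held by nuclei with and without transgene UMIs. The summed CPM of the 7 members in nuclei with at least 1 EGFP UMI, divided by that in nuclei without, ran from 0.857 in astrocytes to 1.29 in amacrine cells over the 9 classes and 2 AAV retinas. In rods it was 1.05 (0.970 to 1.14) and 1.12 (1.04 to 1.20), and in Müller glia 1.20 (1.06 to 1.35) and 1.19 (0.919 to 1.52). At week 2 the range was wider, from 0.735 in RGC of the left eye to 2.05 (1.37 to 3.19) in RGC of the right eye. In cones it was 1.86 (1.55 to 2.21) in the left eye and 1.61 (1.42 to 1.82) in the right. A nucleus without an EGFP UMI may still carry the vector, and deeper nuclei more often show both, so that these ratios are descriptions.

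Lymphocyte and myeloid nuclei were numerous in the AAV retinas of week 4 and also carry these genes, so immune markers are given beside the members. PTPRC, which marks all leukocytes, stood at 0.507 to 6.04 CPM in the neuron and macroglia classes of these retinas and at 0 to 2.74 CPM in those of the vehicle retinas of week 4. In 7 of these 8 classes, all but astrocytes, both AAV retinas lay above both vehicle retinas, with 6.04 and 3.87 CPM against 0.245 and 0.271 CPM in rods and 5.58 and 4.18 CPM against 0.196 and 0.0539 CPM in cones. PTPRC was thus higher in most neuron and macroglia classes together with the members. In the same AAV retinas PTPRC stood at 277 and 294 CPM in the myeloid class and at 440 and 384 CPM in the lymphocyte class. NLRC5 UMIs per PTPRC UMI were 1.32 and 1.09 in myeloid cells and 1.11 and 1.49 in lymphocytes. They were 11.9 and 16.8 in rods, 4.42 and 5.36 in cones, 57.0 and 30.8 in amacrine cells, 62.6 and 51.4 in RGC and 80.1 and 155 in Müller glia. The PTPRC UMIs under these ratios were 299 and 243 in rods and 101 and 84 in cones. They were only 27 and 38 in amacrine cells, 5 and 5 in RGC and 14 and 3 in Müller glia, so that the highest ratios are the least certain. At week 2, when NLRC5 in rods was 38.1 and 59.7 CPM, PTPRC in rods was 0.619 and 0.297 CPM.

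The summed level of the 19 lymphocyte markers in rods was 64.3 to 78.2 CPM in the AAV retinas and 31.3 to 35.2 CPM in the vehicle retinas of week 4, with 0 and 4 markers without a UMI, the latter being CD3D, CD5, MS4A1 and CD79B. At week 2 it was 31.4 to 42.0 CPM in AAV rods against 34.2 to 35.5 CPM. Cones had 84.0 to 89.4 CPM against 37.4 to 48.8 CPM at week 4. The 13 myeloid markers summed to 27.5 to 35.9 CPM in AAV rods against 23.9 to 25.3 CPM in vehicle rods of week 4, and to 27.1 to 36 CPM against 14.4 to 14.8 CPM in cones. The 4 pan-immune markers summed to 23.0 and 13.2 CPM against 3.92 and 4.49 CPM in rods and to 21.0 and 17.1 CPM against 3.39 and 2.16 CPM in cones. In Müller glia the order was the opposite, with 9.37 and 6.08 CPM against 11 and 15.1 CPM, and in astrocytes the groups overlapped, with 18 and 4.02 CPM against 7.44 and 2.74 CPM. The part of this RNA in the neuron and macroglia values was not tested. A refit left all nuclei holding a UMI of PTPRC, DOCK2, IKZF1 or CORO1A out of the neuron and macroglia classes. In it 52 of the 55 pairs tested in those 8 classes were called higher, where 4.05% of all pairs of gene and class were. Nuclei without such a UMI can still hold RNA of immune cells, and the filter on low counts again counted the AAV retinas. The refit therefore does not measure that part.

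**Figure D5:**
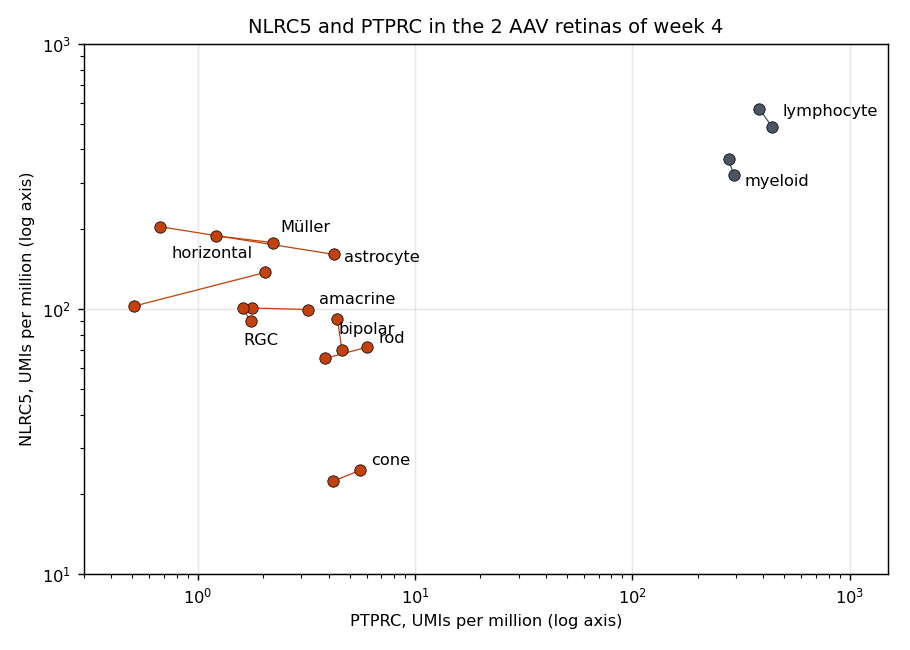
NLRC5 against PTPRC in CPM, both on log axes, for each class in the 2 AAV retinas of week 4 (points). Myeloid cells and lymphocytes lie at PTPRC of 277 to 440 CPM, while neurons and macroglia lie at 6.04 CPM or less with NLRC5 from 22.4 to 205 CPM.

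The neighbours of the members in the same pathway moved in part. The share of all genes called higher at week 4, given above, ran from 1.37% in cones to 11% in Müller glia. Among 9 other peptide loading and trimming genes, ERAP2, an aminopeptidase that trims peptides in the endoplasmic reticulum, rose in 9 of 9 classes at week 4, and its partner ERAP1 in 8. In Müller glia ERAP2 was 17.2 and 14.2 CPM in AAV retinas with no UMI in the vehicle retinas (adjusted p = 6.78e-05, edgeR). That pair passed the filter on low counts only through the AAV retinas, so that its call is no independent support. The same holds in RGC for ERAP1, PSME1, PSMB10 and IRF1, whose vehicle levels, given below, lie under the filter limit of 3.35 CPM. It also holds for ERAP2 in rods, where a vehicle level of 0.105 CPM lay under the limit of 0.256 CPM. Calls of other pathway genes that needed the AAV retinas to pass were not counted. Rods held ERAP2 at 4.08 and 1.82 CPM against 0.105 and 0.379 CPM, a log2 fold change of 3.82 ± 0.67. The lowest adjusted p of ERAP1 was in RGC, at 20.0 and 16.5 CPM against 1.47 and 2.55 CPM (3.19 ± 0.39, adjusted p = 0.000133), and its change was 3.52 ± 0.41 in Müller glia and 1.97 ± 0.29 in rods.

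TAPBPL, a relative of tapasin that edits peptides, rose in 5 classes, with 18.4 and 12.6 CPM against 5.37 and 3.91 CPM in Müller glia (1.78 ± 0.27, adjusted p = 0.00295, edgeR) and a change of 1.03 ± 0.35 in rods that was not called. CALR, a chaperone of the loading complex, was called in 2 classes, horizontal cells (1.25 ± 0.26, adjusted p = 0.0347) and Müller glia, with a change of 0.56 ± 0.15 in the latter (adjusted p = 0.029) and 0.48 ± 0.14 in rods (0.0763). HSPA5 was called in 1 class, RGC (1.20 ± 0.27, adjusted p = 0.0182), and its change in horizontal cells was 1.37 ± 0.38 (adjusted p = 0.0873). LNPEP, an endosomal aminopeptidase, was called in 1 class, Müller glia (0.64 ± 0.15, adjusted p = 0.0194). CANX, PDIA3 and SEC61A1 were called in 0 of 9 classes.

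Of the 4 other inducible proteasome genes, PSME1 rose in 8 classes, PSME2 in 7 and PSMB10 in 6, and the assembly factor POMP in none. PSME1 and PSME2 encode the PA28 cap, and PSMB10 the remaining inducible catalytic subunit. PSME1 had its lowest adjusted p in RGC, at 19 and 20.3 CPM against 3.31 and 1.91 CPM (2.97 ± 0.37, adjusted p = 0.000133, edgeR), with 2.21 ± 0.19 in Müller glia and 1.98 ± 0.21 in rods. PSME2 changed by 2.25 ± 0.22 in Müller glia (adjusted p = 0.000357) and by 1.76 ± 0.18 in rods. PSMB10 reached 23.2 and 19.3 CPM against 1.47 and 2.23 CPM in RGC (3.53 ± 0.38, adjusted p = 3.36e-05), 1.08 ± 0.31 in Müller glia and 0.89 ± 0.22 in rods, where it was not called (0.052). The RGC calls of PSME1 and PSMB10 needed the AAV retinas to pass the filter and are no independent support.

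The constitutive proteasome was called in some classes only. Of its 16 listed genes 14 were in the tables by symbol, and none was called in rods, cones, bipolar or amacrine cells. Müller glia had 5 of 14 called higher, where 11% of all genes were: PSMA2 (1.43 ± 0.19, adjusted p = 0.00171), PSMA5 (1.19 ± 0.20, 0.00451), PSMB2 (0.76 ± 0.14, 0.008), PSMA6 (0.64 ± 0.14, 0.015) and PSMA3 (0.44 ± 0.13, 0.0483). In rods the same 5 genes had changes from 0.10 to 0.36. Astrocytes had 3 of 14 called, where 8.07% of all genes were, and horizontal cells, RGC and myeloid cells 1 each. In these last classes 2.92%, 2.55% and 4.53% of all genes were called. The astrocyte calls were PSMB4 (1.57 ± 0.42, adjusted p = 0.0336), PSMA2 and PSMA5, and the others were PSMA2 in horizontal cells and PSMA6 in RGC and myeloid cells. The Müller nuclei of the AAV retinas were fewer than those of the vehicle retinas, and both Müller and astrocyte nuclei were deeper, as given above. The part of this in the calls of both classes was not tested.

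Upstream of the members, IRF1, a transcription factor of the interferon response, rose in 9 of 9 classes. IRF1 in RGC was 20.0 and 21.7 CPM against 1.84 and 1.59 CPM (3.63 ± 0.38, adjusted p = 2.11e-05, edgeR), with 3.82 ± 0.30 in Müller glia and 2.62 ± 0.31 in rods. That RGC call needed the AAV retinas to pass the filter on low counts and is no independent support. IRF2 was called in 6 classes, with 1.05 ± 0.13 in RGC (adjusted p = 0.000188), 0.79 ± 0.13 in Müller glia and 0.37 ± 0.17 in rods, where it was not called.

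The DNA-binding partners of NLRC5 were called in few classes. RFX5 was called in 1 class, Müller glia (0.99 ± 0.26, adjusted p = 0.0267), with changes from 0.07 in amacrine cells to 1.02 ± 0.39 in RGC (adjusted p = 0.192) in the others, and RFXANK, CREB1, ATF1, NFYA, NFYB and NFYC were called in none. Of the class I heavy chains, 3 of 10 listed symbols were in the tables. SLA-5 had too few UMIs to test, MR1 was called in 0 of 4 classes and CD1D in 0 of 6, and the classical pig heavy chains are not analysed here. None of the pathway genes was called lower in any class.

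The class II side was set beside the class I genes. CD74, the invariant chain of class II, rose in 7 of 8 classes in which it was tested at week 4, with its lowest adjusted p in bipolar cells, at 16.4 and 14.3 CPM against 1.88 and 1.85 CPM (3.07 ± 0.19, adjusted p = 0.000294, edgeR). It was 24.7 and 20.6 CPM against 1.30 and 1.73 CPM in rods (4.03 ± 0.21) and changed by 2.36 ± 0.34 in Müller glia. In week 2 rods it stood at 1.62 and 2.54 CPM against 1.15 and 1.18 CPM, while NLRC5 was at 38.1 and 59.7 CPM in the same nuclei. CIITA, the class II counterpart of NLRC5, was called in 3 of 5 classes, cones, bipolar cells and myeloid cells, at 638 and 484 CPM against 83.6 and 23.1 CPM in the last (3.57 ± 0.39, adjusted p = 0.000924). Rods had 3.43 and 1.66 CPM against 0.420 and 0.920 CPM of CIITA, which was not called (0.0532). CD74 is abundant in myeloid cells, at 440 and 439 CPM in the AAV retinas of week 4, and the part of RNA from immune cells in the neuronal CD74 level was not tested.

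Over the 72 sums of 9 classes in 8 retinas, the genes with the pattern most like NLRC5 were members. The Pearson correlation of log2(CPM + 1) with NLRC5 was 0.969 for TAP1, 0.962 for TAP2 and 0.959 for B2M, the first 3 of 32825 genes. PSMB9 (0.910) was at rank 32, PSMB8 (0.892) at rank 43 and TAPBP (0.710) at rank 132. Outside the members, among the highest were ENSSSCG00000001229 (0.952), which has no symbol in the tables, DDX60 (0.95), LGALS3BP (0.948) and IFI6 (0.947). Sums of a class or of a retina share nuclei composition, depth and animal, so that these values describe likeness only. Within the 36 sums of AAV retinas the correlation with NLRC5 was 0.954 for TAP1, 0.967 for TAP2 and 0.512 for TAPBP. Within the 36 sums of vehicle retinas, where most members have few UMIs, it was 0.675 for TAP1, 0.773 for TAP2, 0.801 for B2M, 0.765 for PSMB8, 0.344 for TAPBP and -0.49 for PSMB9.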

How the data were processed

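Nuclei from frozen retinas were captured with 10x chemistry in 4 lanes per retina. The authors counted UMIs with Cell Ranger 8.0.0 against Sscrofa11.1 with EGFP added, and deposited the counts per gene and barcode without normalization, with no barcode under 500 UMIs. Nuclei were filtered here with a mixture model of mitochondrial share after miQC (posterior 0.75), which removed 6.9% to 12.9% per retina. A class was given by a Poisson likelihood over 96 of 110 listed markers, with a margin of 5 over the next class. This scoring rule was set after the data were seen, and 17.6% of nuclei stayed ungated. Of the Müller class 34.3%, and of the amacrine class 27.0%, lay near that limit. Doublets were not removed.

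UMIs were summed per retina and class. AAV and vehicle were compared with edgeR 4.0.16 (quasi-likelihood test, TMM scaling, filterByExpr) in R 4.3.3, adjusted over all genes of a class, with a threshold of 0.05. DESeq2 1.42.0 was an alternative. Only the week 4 fit was run on simulated counts, for rods, Müller glia and RGC, with genes changed by known folds. The other fits, and gains as large as those of most members, were not covered. The outcome is not given here. At week 2, ratios of summed counts have exact 95% intervals, which leave out differences between animals. Shares have exact binomial intervals. Against a group without counts, a fold is a bound from 3 counts over the group. Depth per retina limits each value through counting, and PCR is handled by the UMIs. Other effects of depth were not tested. Python 3.11.15 was used for the sums.

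The members and gene lists were chosen with earlier results of these data known. Genes named are the members, every listed pathway gene called in at least 1 class (values for the class with the lowest adjusted p, Müller glia and rods) and the 5 genes outside the members most correlated with NLRC5. Of these, 1 gene is not reported here. Alternatives were other count models, scalings, filters, gates, eyes and retinas left out, and for the difference between classes they were chosen after the data were seen.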

Additional observations from a re-analysis of the deposited data

Results flagged for a closer look

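The AAV effect at week 4 differed between the 9 classes for 6 members by the joint edgeR test, with adjusted p-values of 1.76e-05 for TAPBP, 5.6e-05 for NLRC5, 0.000291 for TAP1, 0.000434 for B2M, 0.00847 for PSMB9 and 0.0362 for TAP2. The PSMB9 result includes astrocytes and myeloid cells, whose vehicle retinas held no PSMB9 UMI. Nuclei that passed no marker gate, 17.6% of those kept, entered none of the comparisons and also held the members. Their CPM in the AAV retinas of week 4, divided by that in the vehicle retinas, was 39.3 for NLRC5, 34.7 for B2M, 25.2 for TAP1, 23.6 for TAP2, 2.85 for TAPBP, 140 for PSMB8 and 11 for PSMB9. In the vehicle retinas of week 4 the ungated nuclei held NLRC5 at 3.41 and 3.47 CPM.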

How the results depend on the processing

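Of 57 calls at week 4, 49 stayed past the threshold under every alternative that gave them an adjusted p, and 53 under those of them that left out no retina. Not every alternative gave one: 57 pairs could be tested without AAV animal 1 and 59 without AAV animal 2. The number of pairs called higher was 56 with RLE scaling or library totals, 59 of 63 without a filter on low counts, 53 of 63 with DESeq2 (where 2 had no adjusted p), 57 in the 4-group fit, 58 with all barcodes, 56 with at least 1000 UMIs per nucleus, 55 of 60 with the stricter gate and 53 without any 1 retina. DESeq2 called 3 of 7 members in myeloid cells in place of 5. Leaving out 1 retina gave 5 to 7 calls in rods, 5 in cones, 6 to 7 in bipolar cells, 7 in amacrine cells, 5 to 6 in horizontal cells, 6 to 7 in RGC, 7 in Müller glia, 5 to 6 in astrocytes and 3 to 4 in myeloid cells, where without either AAV retina only 3 members passed the filter. TAP2 in myeloid cells was also lost with RLE scaling (adjusted p = 0.052), library totals (0.0656), DESeq2 (0.148) and the limit of 1000 UMIs (0.0716). PSMB9 in horizontal cells was lost in the 4-group fit (0.0565), PSMB9 in RGC with DESeq2 (0.103) and PSMB8 in myeloid cells with DESeq2 (0.0552). TAPBP in myeloid cells turned from a log2 fold change of -0.03 to 0.11 without a filter on low counts, 0.072 without vehicle animal 1, 0.11 with all barcodes and 0.37 with the stricter gate. It stayed at -0.027 without vehicle animal 2. PSMB9 in RGC at week 2 turned from a ratio of 1.48 to 0.412 with left eyes only. Of the ratios of week 2 that could be formed, 13 of 56 left their counting interval with left eyes only and 8 of 55 with right eyes only. The cause was not tested. Over 6 animals, 56 of 61 pairs were called with left eyes only and 59 of 63 with DESeq2.

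The test of differences between classes called 3 members with the 6 neuron classes only and 3 to 5 without 1 retina, alternatives chosen after seeing the data. Thinning to 1000 and 500 UMIs lowered the share of nuclei with any member to 19.4% and 10.3% in rods, 7.57% and 3.68% in cones, 18.5% and 10.6% in bipolar cells, 23.3% and 12.6% in amacrine cells, 32.1% and 18.2% in horizontal cells, 23.0% and 10.3% in RGC, 35.6% and 20.1% in Müller glia, 29.5% and 17.4% in astrocytes and 50.3% and 30.4% in myeloid cells. No paired analysis was possible because the animals of AAV and vehicle groups differ, and equal replicate numbers name eyes at week 2 and unrelated animals at week 4. Few vehicle UMIs limit PSMB8 in every class, with 0 to 3 at week 4, and PSMB9 in the rarer classes. They also limit B2M, TAP1 and TAP2 in horizontal cells.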

Other observations

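Vascular nuclei, with 7 to 59 nuclei per retina, were too few to compare. Their NLRC5 in the vehicle retinas was 59.8 and 112 CPM at week 2 and 231 and 61.6 CPM at week 4, and in the AAV retinas 279 and 484 CPM at week 2 and 144 and 243 CPM at week 4. Vascular nuclei of vehicle retinas held B2M at 0 to 139 CPM over both weeks. Lymphocyte nuclei of the AAV retinas of week 4 held NLRC5 at 487 and 571 CPM, B2M at 140 and 158 CPM and PSMB8 at 99.7 and 73.4 CPM. The ratio of NLRC5 to B2M UMIs in these retinas was 3.47 and 3.61 in lymphocytes, 2.68 and 2.02 in myeloid cells, 1.95 and 1.83 in Müller glia, 2.37 and 2.04 in RGC, 1.33 and 1.01 in rods and 1.04 and 0.799 in cones.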
